A study of Mus musculus with 6 samples.

Results

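The mouse genome holds many pseudogenes that carry the name of an expressed gene with the ending -ps. All genes of the expression table whose symbol ends in -ps, or in -ps and digits, are described here, except H2-Ea-ps. They were 354 of 24965 genes. Most processed pseudogenes are retrocopies, made when a spliced messenger RNA was copied back into DNA and inserted elsewhere, so they lack the introns of their parent gene. Many carry no promoter of their own and are read from a neighbouring one. A short read from a young copy can match the parent as well, and how such reads were shared out between a copy and its parent is uncertain for the values below.

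RNA was sequenced from donor HSPCs (hematopoietic stem and progenitor cells) recovered from irradiated recipients 6 h after bone marrow transplantation (BMT). The donors were WT or Hemgn-/- mice of 8 to 10 weeks on the C57BL/6 (CD45.2) background, and Hemgn was disrupted throughout the body with zinc finger nucleases. Recipients of both groups carried CD45.1 and had received 9 Gy in split doses. Each genotype had 3 libraries, which the study calls biological replicates, and the labels differ among themselves on whether the sorted cells were Lin-Sca-1+ or Lin-Sca-1+c-Kit+.

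Depth, recovered from the steps of low FPKM values, ran from 23668015 to 28897360 fragments per library. Recovered fragments summed over genes exceeded it in every library (25213529 against 23668015 in WT replicate 1). The depth is therefore the divisor that the FPKM steps imply, not a counted total. Hemgn itself was at 5.64, 2.96 and 4.68 FPKM (fragments per kilobase of exon and per 1000000 fragments of the library) in WT libraries and at 0.755, 0.913 and 1.60 FPKM in Hemgn-/- libraries. Its log2 fold change was -1.37 (adjusted p = 0.0114, limma with Benjamini-Hochberg adjustment). That p became 0.0503 once WT replicate 3 was left out. Of 8 HSPC markers 2 were higher, with a summed level of 121 to 128 FPKM in WT libraries and 152 to 156 FPKM in Hemgn-/- libraries, and Flt3 was under 1 FPKM. Of 6 erythroid markers 3 were lower, with 452 to 539 FPKM in WT libraries and 29.3 to 49.1 FPKM in Hemgn-/- libraries. Of 6 granulocyte markers 4 were lower, with 5730 to 7408 and 4269 to 5477 FPKM. Of 5 B cell markers 2 were higher (677 to 719 and 801 to 915 FPKM), of 5 macrophage markers 1 was higher and 2 lower (137 to 140 and 113 to 125 FPKM), and the sum of 4 endothelial markers was at 12.1 to 14.6 and 15.2 to 19.0 FPKM. Of these 4 endothelial markers 0 passed, and Cdh5 and Emcn were under 1 FPKM. The sums of T and NK cell and of plasmacytoid dendritic cell markers overlapped between groups. Of the 4 plasmacytoid dendritic cell markers 1 was higher. In bulk RNA, fewer cells of a type and less RNA per cell cannot be told apart.

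The stretches below show how some of the copies whose values changed differ from their parents. Each is the window of 60 bases of the copy with the most differences from the parent's coding sequence, beside the parent's aligned bases. Rpl31-ps13 (7 of 375 aligned coding bases differing) and Eif3s6-ps2 changed more than Rpl34-ps1 but are not shown. Sequences are GENCODE M21 transcripts on GRCm38, 5′ to 3′ on the strand of the gene, and capitals mark bases that differ between copy and parent.

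Rpl10-ps2 lies on chromosome 8 (minus strand), and its window at chr8:106928059-106928118 aligned to bases 296 to 355 of the Rpl10 coding sequence, across an exon junction. It differed at 7 bases, and 21 of 642 aligned coding bases differed in all.
Rpl10-ps2: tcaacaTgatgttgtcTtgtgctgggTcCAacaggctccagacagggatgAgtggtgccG
Rpl10: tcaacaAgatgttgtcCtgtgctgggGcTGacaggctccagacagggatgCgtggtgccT

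Rpsa-ps10 lies on chromosome 3 (minus strand), and its window at chr3:150073324-150073383 aligned to coding bases 160 to 219 of Rpsa at chr9:120129184-120129243 (plus strand). It differed at 2 bases, and 6 of 885 aligned coding bases differed in all.
Rpsa-ps10: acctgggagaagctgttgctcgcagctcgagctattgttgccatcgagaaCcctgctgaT
Rpsa: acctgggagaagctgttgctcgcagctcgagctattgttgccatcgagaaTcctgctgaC

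Tgif2-ps2 lies on chromosome 17 (plus strand), and its window at chr17:40115475-40115534 aligned to coding bases 118 to 177 of Tgif2 at chr2:156844307-156844366 (plus strand). It differed at 1 base, and 2 of 477 aligned coding bases differed.
Tgif2-ps2: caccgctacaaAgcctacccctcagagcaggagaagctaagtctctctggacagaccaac
Tgif2: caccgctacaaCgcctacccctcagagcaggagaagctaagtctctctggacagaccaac

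Rpl34-ps1 lies on chromosome 6 (plus strand), and its window at chr6:71124682-71124741 aligned to coding bases 73 to 132 of Rpl34 at chr3:130729084-130729143 (minus strand). It differed at 1 base, and 2 of 351 aligned coding bases differed.
Rpl34-ps1: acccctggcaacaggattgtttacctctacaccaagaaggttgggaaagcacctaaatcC
Rpl34: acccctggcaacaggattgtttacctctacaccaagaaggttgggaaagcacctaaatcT

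Pgam1-ps2 lies on chromosome 7 (minus strand) and is shown as a copy with 0 differing bases in 762 aligned coding bases. Its window at chr7:27470476-27470535 aligned to the first coding bases of Pgam1 at chr19:41912048-41912107 (plus strand).
Pgam1-ps2: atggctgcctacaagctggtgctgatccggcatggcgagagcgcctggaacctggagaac
Pgam1: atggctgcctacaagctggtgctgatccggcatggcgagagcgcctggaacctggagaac

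Of the 354 named pseudogenes, 252 are annotated as processed pseudogenes and 16 as transcribed processed pseudogenes, while 14 carry a gene type without the word pseudogene. They lie on 21 chromosomes and carry the names of 237 parent genes, and Hmgb1 lent its name to 8 of them. A parent of the same symbol was in the table for 261 copies. In total 144 named pseudogenes exceeded 1 FPKM in at least 1 library and were tested, and the other 210 did not and are not counted below. This filter can be met through 1 genotype: 115 copies met it in both, 16 in Hemgn-/- libraries only and 13 in WT libraries only. The tested copies were low, with a median of 3.01 FPKM, against 13.3 FPKM for tested parents and 4.24 FPKM for all genes tested. Even so, 20 of 111 tested copies with a parent in the table had a higher mean FPKM than the parent. These levels are per kilobase of exon.

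Tested copies resembled their parents closely. Median identity over the aligned part was 99.1% for the 111 copies with a parent in the table, the lowest was 73.2%, and 16 were identical. A single exon made up 116 of the 144. For 16 of the 144 copies, each stretch of 150 bases occurred exactly in a transcript of another gene, and for 50 none did. Other annotated genes overlapped 62 of the tested copies, for 51 of them only within an intron. The library protocol stated in the study does not mark strand, so reads from a copy and from an unspliced host transcript cannot be told apart on either strand.

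The most abundant named pseudogenes were those of a tetraspanin, an RNA helicase, a ribosomal protein, a co-chaperone and a Rab GTPase. Over all 6 libraries Cd63-ps had a mean of 56.1 FPKM, Eif4a-ps4 51.5 FPKM, Rps6-ps4 40.4 FPKM, Ptges3-ps 34.8 FPKM and Rab7-ps1 33.3 FPKM. Of these, Cd63-ps fell and Ptges3-ps rose in Hemgn-/- HSPCs. Eif4a-ps4 (log2 fold change 0.34, adjusted p = 0.174), Rps6-ps4 (0.07, 0.839) and Rab7-ps1 (-0.04, 0.826) did not pass the limma test with Benjamini-Hochberg adjustment. Rps6-ps4 is identical to Rps6 over its length, and Rps6 was at 277 FPKM on average.

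Of the 144 tested copies, 12 had an adjusted p under 0.05 in limma on log2(FPKM + 1), 10 higher and 2 lower in Hemgn-/- HSPCs. That is 8.33% of the copies, against 6.46% of all 13739 genes tested (4.37% higher and 2.09% lower). Of the 10 higher copies, Tgif2-ps2, Rpsa-ps10, Rpl10-ps2 and Eif3s6-ps2 met the filter through Hemgn-/- libraries only, so the difference itself brought them into the test and the count of 10 includes it. Of the 115 copies above 1 FPKM in both groups, 6 were higher and 2 lower, or 6.96%, and the share of all genes above 1 FPKM in both groups was 6.96% as well. The median log2 fold change was 0.10 for the copies and 0.09 for all genes tested. For comparison, 4.93% of 771 tested pseudogenes with other kinds of name passed, 34 higher and 4 lower. With other scalings between libraries, median-ratio scaling gave 6 higher and 2 lower copies, quantile normalization gave 6 and 3, and rescaling to the same FPKM total gave 13 and 2. Quantile normalization added Ap3s1-ps2, and the same FPKM total added Rab11b-ps2, Rps2-ps9 and Slc2a4rg-ps. Leaving out WT replicate 1 or WT replicate 3 left 5 higher copies, and leaving out Hemgn-/- replicate 3 left 4. Leaving out Hemgn-/- replicate 2 gave 6, of which Slc2a4rg-ps was not among the 10. A single copy was still lower when WT replicate 1, Hemgn-/- replicate 2 or Hemgn-/- replicate 3 was dropped. Without WT replicate 3, Cd63-ps stayed lower, Rpl28-ps3 lost its call and H2-T-ps gained one.

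Of the 144 tested copies, groups did not overlap for 28 that were higher and 14 that were lower in Hemgn-/- HSPCs. Of all genes tested, 27.4% had groups that did not overlap, 19.2% higher and 8.18% lower. By parent, 4 of 58 tested copies of ribosomal protein genes were higher and 1 lower (8.62%, against 6.46% of all genes tested). Of 7 copies of chromatin and high mobility group genes 1 was higher (14.3%). The single tested copy of a glycolysis gene was higher, as was 1 of 2 copies of translation factors. Of 4 copies of receptors and immune segments 0 passed in limma or in limma voom, and 2 had an unadjusted p under 0.05 in limma. Of the 144 copies tested 40 had an unadjusted p under 0.05 in limma, against 2944 of all 13739 genes tested (21.4%). Among the remaining 72 copies 3 were higher and 1 lower (5.56%). Of the higher copies, Rpsa-ps10 and Rpl10-ps2 (ribosomal), Eif3s6-ps2 (translation factor) and Tgif2-ps2 (remaining) met the filter through Hemgn-/- libraries only. The difference itself brought these copies into the test, and the shares of their classes include it.

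**Figure D1:**
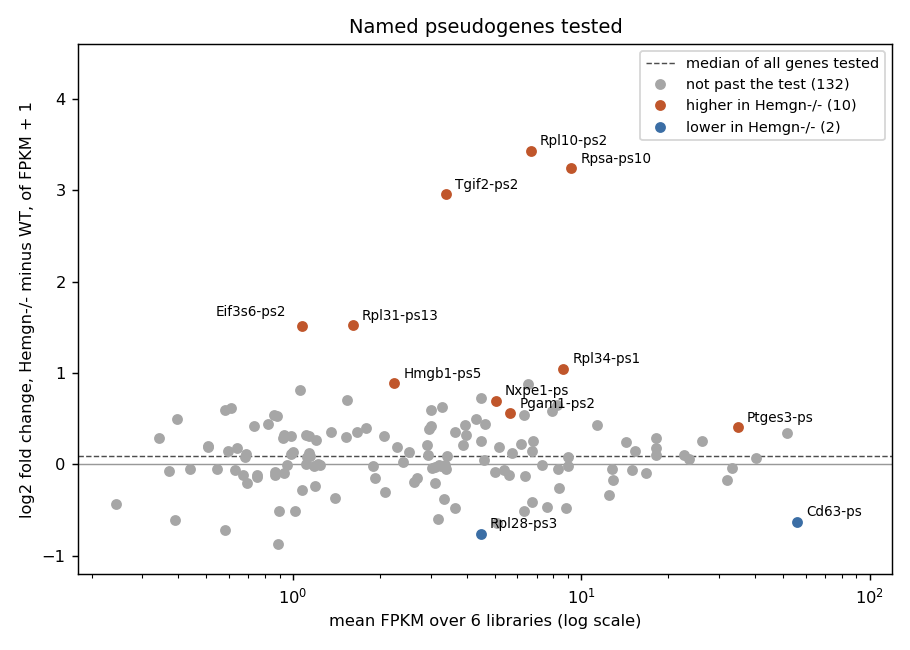
Log2 fold change of FPKM + 1 (Hemgn-/- minus WT) against mean FPKM over 6 libraries on a log scale, 1 point for each of the 144 tested named pseudogenes, with copies past the limma test named. The 10 higher copies (orange) include 5 above a log2 change of 1.5, while the 132 copies not past the test (grey) lie between -0.87 and 0.88. The dashed line is the median of all genes tested, at 0.09, and the position of Tgif2-ps2, listed at 0 in WT, depends on the pseudocount.

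Tgif2-ps2 carries the name of Tgif2, a homeodomain repressor of TGF-β-responsive genes. No fragment was listed for it in the 3 WT libraries, while Hemgn-/- replicates 1, 2 and 3 stood at 6.66, 7.20 and 6.47 FPKM, or 177, 183 and 181 fragments. The groups were far apart, and the Hemgn-/- libraries lay close together. Like Rpsa-ps10, Rpl10-ps2 and Eif3s6-ps2, this copy met the filter through Hemgn-/- libraries only, so the difference itself brought it into the test. A count of 0 allows up to 3 fragments per library, so Tgif2-ps2 was at least 49.4-fold higher in the lowest Hemgn-/- library than the limit of the WT library with the lowest depth (adjusted p = 2.17e-05, limma with Benjamini-Hochberg adjustment). This floor covers counting error only, since fragments of amplified cDNA are not independent molecules. It does not cover how reads were shared out between copy and parent, which is uncertain. Tgif2 was at 0.695, 0.816 and 0.791 FPKM in WT and, in Hemgn-/- libraries, 1.49, 1.65 and 1.15 FPKM, and its groups did not overlap either (log2 fold change 0.45, adjusted p = 0.202). The copy held a mean of 54.8% of the fragments of the pair in Hemgn-/- libraries. It has 2 annotated exons and 42.9% of its stretches of 150 bases are found exactly in Tgif2.

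Rpsa-ps10 carries the name of Rpsa, the laminin receptor protein of the small ribosomal subunit. It was at 0.955, 0.883 and 0.938 FPKM in WT libraries and 14.2, 22.7 and 15.6 FPKM in Hemgn-/- libraries. It thus met the filter through Hemgn-/- libraries only. The WT libraries lay close together, and the lowest Hemgn-/- library stood well above them (log2 fold change 3.24 ± 0.17 standard error, adjusted p = 2.88e-05, limma with Benjamini-Hochberg adjustment). Rpsa was at 21.9, 28.7 and 21.1 FPKM in WT libraries and 13.2, 21.6 and 16.9 FPKM in Hemgn-/- libraries, with overlapping groups (log2 fold change -0.46, adjusted p = 0.182). The copy's share of the pair's fragments was 1.09% ± 0.209 in WT and 22.1% ± 1.43 in Hemgn-/- libraries (SD, n = 3 each). Copy and parent together were at 76.5 ± 13.1 and 70.1 ± 17.3 fragments per 1000000 (log2 ratio -0.14, exact permutation p = 0.5). The gain of the copy, 14.7 fragments per 1000000, was close to the SD of the parent in WT, 13.2.

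Rpl10-ps2 carries the name of Rpl10, a protein of the large ribosomal subunit, and differs from it more than the other ribosomal copies that passed. It was at 0, 0.848 and 0 FPKM in WT libraries and at 8.59, 10.4 and 20.3 FPKM in Hemgn-/- libraries. This copy, too, met the filter through Hemgn-/- libraries only. Groups were separate, with Hemgn-/- replicate 3 the highest (log2 fold change 3.43 ± 0.34 standard error, adjusted p = 0.000954, limma with Benjamini-Hochberg adjustment). Rpl10 was at 117 ± 22.9 FPKM in WT libraries and 115 ± 23.8 FPKM in Hemgn-/- libraries (SD, n = 3 each), which differed by less than the spread between replicates. The copy's share was 0.0622% of the pair's fragments in WT and 3.49% in Hemgn-/- libraries, and the pair's sum moved by a log2 ratio of 0.03 (exact permutation p = 0.9). In all, 8.06% of the stretches of 150 bases of Rpl10-ps2 are found in other transcripts, 5.85% in Rpl10.

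Rpl34-ps1 and Rpl34 changed in opposite directions. The copy was at 4.89, 5.74 and 5.10 FPKM in WT libraries and 9.06, 14.0 and 13.1 FPKM in Hemgn-/- libraries (log2 fold change 1.05 ± 0.16 standard error, adjusted p = 0.00723, limma with Benjamini-Hochberg adjustment). Rpl34, of the large ribosomal subunit, was at 15.1, 16.7 and 14.6 FPKM in WT libraries and 8.38, 10.5 and 9.44 FPKM in Hemgn-/- libraries (log2 fold change -0.66, adjusted p = 0.0103). Groups did not overlap for either gene. The copy's share of the pair's fragments was 4.34% in WT and 14.5% in Hemgn-/- libraries. Their sum was lower in Hemgn-/- libraries without overlap, at 42.8 ± 3.04 against 29.2 ± 3.67 fragments per 1000000 (log2 ratio -0.56). With limma voom on recovered fragments the adjusted p of Rpl34-ps1 was 0.0689.

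Eif3s6-ps2 carries an older name of Eif3e, a subunit of the translation initiation factor eIF3, and no gene of the table has the symbol Eif3s6. It was at 0, 0.178 and 0 FPKM in WT libraries and at 1.16, 2.27 and 2.84 FPKM in Hemgn-/- libraries (log2 fold change 1.51, adjusted p = 0.0121, limma with Benjamini-Hochberg adjustment). Eif3s6-ps2 met the filter through Hemgn-/- libraries only. The groups did not overlap, and the adjusted p was 0.0625 without Hemgn-/- replicate 2 and 0.0708 without Hemgn-/- replicate 3. By sequence, which was looked up after its values were seen, its nearest coding gene is Eif3e, at 96.0% identity. Eif3e fell from 107 ± 3.24 to 76.1 ± 3.91 FPKM (log2 fold change -0.48, adjusted p = 0.00531; SD, n = 3 each). The copy's share of the fragments of both was 0.0107% in WT and 0.535% in Hemgn-/- libraries.

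Rpl31-ps13 was listed at 0, 1.24 and 0 FPKM in WT libraries and at 2.12, 2.83 and 3.48 FPKM in Hemgn-/- libraries (log2 fold change 1.53, adjusted p = 0.0303, limma with Benjamini-Hochberg adjustment). WT replicate 2 lay nearest to the Hemgn-/- libraries, and without it the adjusted p was 0.00558. Leaving out any of the other 5 libraries took the adjusted p to between 0.0547 and 0.126. Rpl31, of the large ribosomal subunit, was less abundant per kilobase than this copy in Hemgn-/- libraries, at 1.14 ± 0.109 FPKM in WT libraries and 1.34 ± 0.453 FPKM in Hemgn-/- libraries. Rpl31-ps13 lies in an intron of Naip1 on the opposite strand, and Naip1 was at 0.0102 FPKM in WT libraries and 0.183 FPKM in Hemgn-/- libraries.

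**Figure D2:**
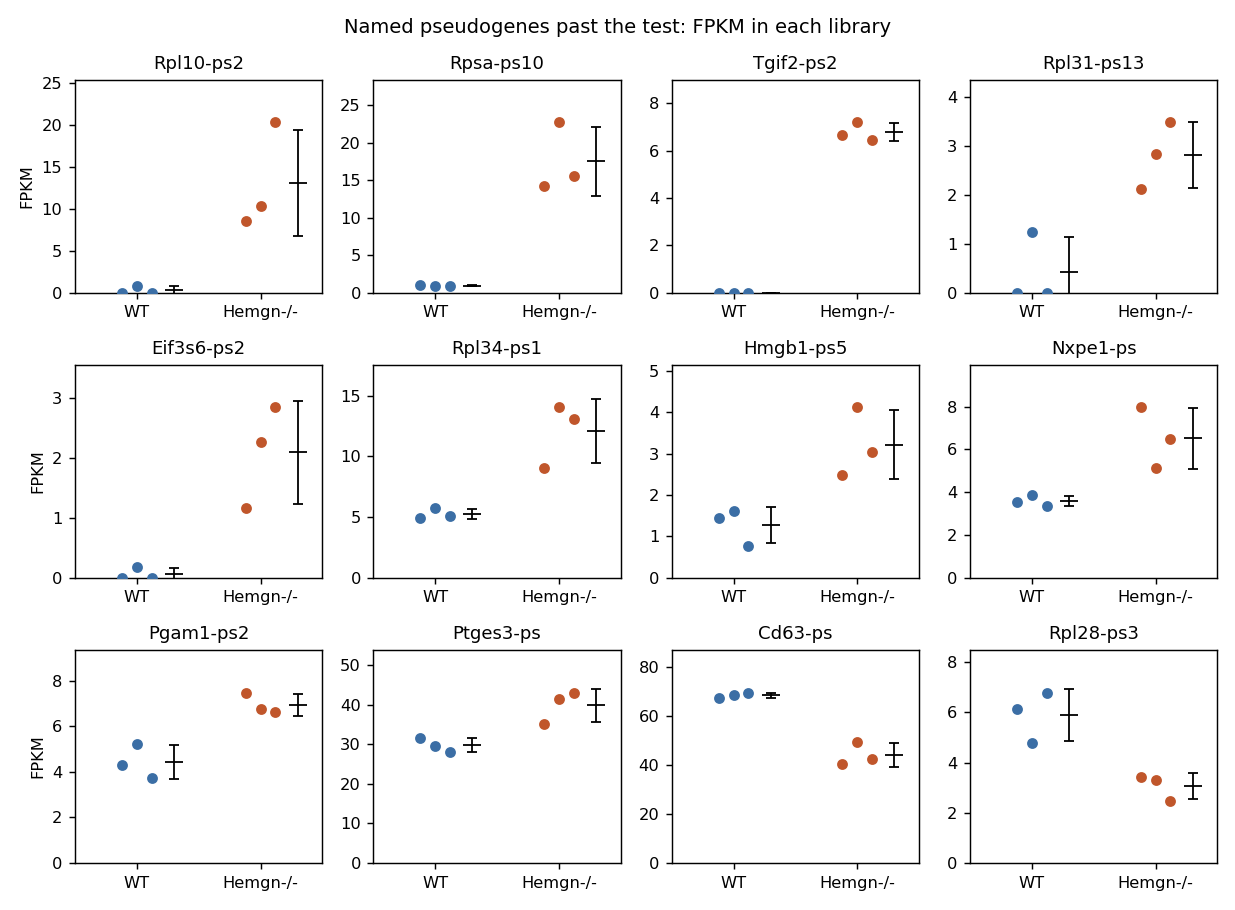
FPKM of the 12 named pseudogenes past the test, in 3 WT (blue) and 3 Hemgn-/- (orange) libraries, with the mean and SD of each group as a black bar; every panel has its own axis from 0. Groups do not overlap in any panel, and Tgif2-ps2 is at 0 in the 3 WT libraries.

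Smaller changes were seen for 4 further higher copies, none of which kept its call over all single-library omissions. Hmgb1-ps5, a copy of the DNA-bending chromatin protein gene Hmgb1, was at 1.44, 1.61 and 0.777 FPKM in WT libraries and 2.49, 4.12 and 3.04 FPKM in Hemgn-/- libraries (log2 fold change 0.89, adjusted p = 0.0431, limma with Benjamini-Hochberg adjustment). It lies in an intron of Ctss on the same strand. Ctss, the lysosomal protease cathepsin S, was higher too, from 79.5 ± 4.66 to 103 ± 3.14 FPKM (log2 fold change 0.36, adjusted p = 0.0205, SD, n = 3 each), while Hmgb1 was at 20.9 ± 1.63 and 21.6 ± 2.36 FPKM. The part of Ctss in the result was not tested. Without 1 library the adjusted p of Hmgb1-ps5 lay between 0.0508 and 0.139, and that of Ctss passed 0.05 when WT replicate 3 (0.0689), Hemgn-/- replicate 2 (0.0685) or Hemgn-/- replicate 3 (0.0932) was dropped.

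Nxpe1-ps is an unprocessed copy with 4 exons, and no gene of the table is named Nxpe1. Its values were 3.56, 3.86 and 3.36 FPKM in WT libraries and 7.96, 5.12 and 6.48 FPKM in Hemgn-/- libraries (log2 fold change 0.70, adjusted p = 0.0336, limma with Benjamini-Hochberg adjustment). The lowest Hemgn-/- library exceeded the highest WT library. No stretch of 150 bases is shared with another transcript, and its nearest coding gene, Nxpe2, is 71.5% identical. Its adjusted p was 0.0251 without Hemgn-/- replicate 2 and between 0.0555 and 0.114 without any of the other 5 libraries.

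Pgam1-ps2 and Ptges3-ps are identical to Pgam1, a glycolytic mutase, and Ptges3, the Hsp90 co-chaperone p23, over their lengths. Pgam1-ps2 was at 4.31, 5.21 and 3.73 FPKM in WT libraries and 7.48, 6.74 and 6.60 FPKM in Hemgn-/- libraries (log2 fold change 0.56, adjusted p = 0.0429, limma with Benjamini-Hochberg adjustment), and Pgam1 was at 98.4 ± 10.2 and 104 ± 7.66 FPKM. The copy's share of the pair rose without overlap, from 1.70% to 2.53%. Ptges3-ps was at 31.6, 29.6 and 28.0 FPKM in WT libraries and 35.2, 41.5 and 43.1 FPKM in Hemgn-/- libraries (log2 fold change 0.41, adjusted p = 0.0454). Ptges3 had a log2 fold change of 0.42 (adjusted p = 0.119), the share of the copy was 34.3% and 34.0%, and the shares overlapped. Without 1 library, the adjusted p of Pgam1-ps2 was 0.0289 without WT replicate 2 and 0.104 to 0.119 otherwise, and that of Ptges3-ps was 0.0272 without Hemgn-/- replicate 1 and 0.0802 to 0.170 otherwise.

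The lower copies were Cd63-ps and Rpl28-ps3. Cd63-ps was at 67.1, 68.3 and 69.4 FPKM in WT libraries and 40.2, 49.3 and 42.4 FPKM in Hemgn-/- libraries (log2 fold change -0.63 ± 0.09 standard error, adjusted p = 0.00496, limma with Benjamini-Hochberg adjustment). Cd63, a tetraspanin of late endosomes and granules, fell by nearly the same amount, from 113 ± 3.68 to 72.1 ± 7.79 FPKM (log2 fold change -0.64, adjusted p = 0.00432). The copy's share of the pair was 12.6% in WT and 12.7% in Hemgn-/- libraries, and the shares overlapped. Cd63-ps lies in an intron of Hsd17b4 on the same strand, and Hsd17b4 had a log2 fold change of -0.05 (adjusted p = 0.838). Granulocyte markers were lower in the same libraries, with 4 of 6 past the test, and their part in the result was not tested.

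Rpl28-ps3 was at 6.13, 4.77 and 6.79 FPKM in WT libraries and 3.43, 3.31 and 2.47 FPKM in Hemgn-/- libraries (log2 fold change -0.76, adjusted p = 0.0273, limma with Benjamini-Hochberg adjustment). It was more abundant per kilobase than its parent, since Rpl28, of the large ribosomal subunit, was at 0.396 ± 0.126 and 0.478 ± 0.114 FPKM and was not tested. Rpl28-ps3 lies in an intron of Oscp1 on the opposite strand. Oscp1 fell as well, from 6.66 ± 0.783 to 3.48 ± 0.431 FPKM (log2 fold change -0.77, adjusted p = 0.0117). The part of Oscp1 in the result was not tested. The adjusted p of Rpl28-ps3 was 0.0869, 0.0955, 0.0644 and 0.0971 without WT replicates 1 and 3 and Hemgn-/- replicates 2 and 3. For Oscp1 it was 0.0509 when WT replicate 1 was dropped and 0.0545 when Hemgn-/- replicate 3 was.

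Copies and parents were then set side by side. Among the 109 tested copies whose parent was tested, 1 was higher with a lower parent (Rpl34-ps1), 7 were higher with a parent not past the test, 1 was lower with a lower parent (Cd63-ps), and 95 passed on neither side. In 5 pairs the parent passed and the copy did not, and in each of these the copy's log2 fold change had the parent's sign. Hspd1, the mitochondrial chaperonin, rose (log2 fold change 0.40, adjusted p = 0.0429) and Hspd1-ps3 was at 0.32 (adjusted p = 0.186, limma with Benjamini-Hochberg adjustment). Ifi203, of the interferon-inducible p200 family, rose (0.64, adjusted p = 0.00865) and Ifi203-ps was at 0.60 (adjusted p = 0.135). Ap3s1, of the adaptor complex AP-3, fell (-0.51, adjusted p = 0.0256), and Ap3s1-ps1 and Ap3s1-ps2 were at -0.41 and -0.60. Scp2, a sterol carrier protein, fell (-0.50, adjusted p = 0.00417) and Scp2-ps2 was at -0.46. Hspd1 lost its call without any 1 of the libraries (0.0603 to 0.129), and Ap3s1 lost it when any library but Hemgn-/- replicate 2 was dropped (0.0503 to 0.0874).

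**Figure D3:**
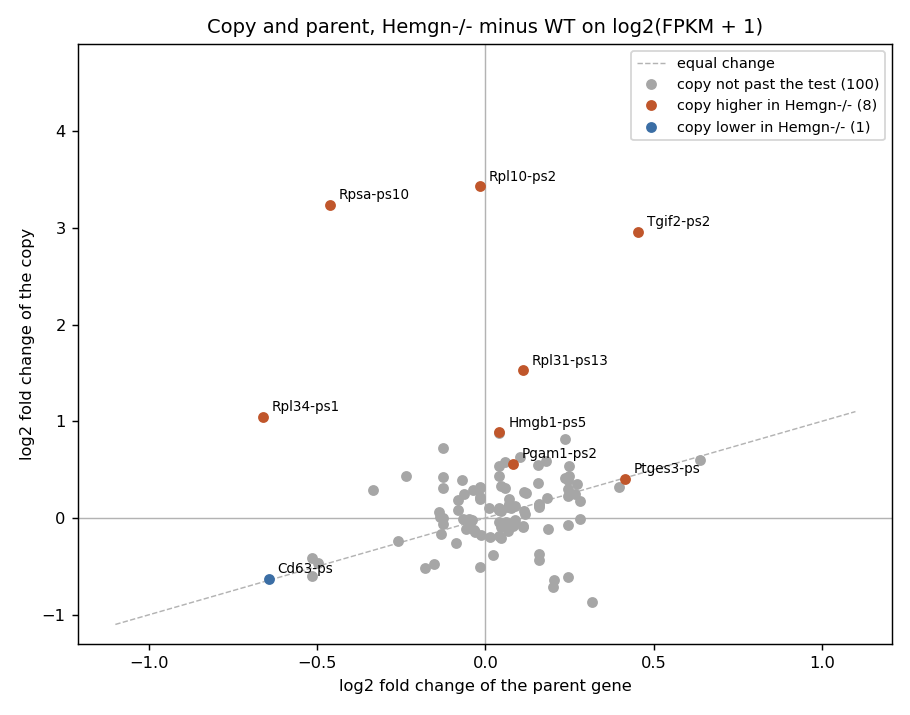
Log2 fold change of the copy against that of its parent gene (Hemgn-/- minus WT on log2(FPKM + 1)) for 109 pairs in which both were tested, with the copies past the test named. Cd63-ps and Ptges3-ps lie on the dashed line of equal change, while Rpl10-ps2, Rpsa-ps10, Tgif2-ps2 and Rpl34-ps1 lie far above it. Tgif2-ps2 is placed by its fitted value, which depends on the pseudocount.

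Among all parents, 142 of 152 were tested, and 12 passed, 4 higher and 8 lower (8.45%). Of all genes tested 6.46% passed, 4.37% higher and 2.09% lower. Copies and parents together were compared through the sum of their fragments. In 5 of 10 pairs with a copy past the test the summed fragments did not overlap between groups: the sums of Tgif2 (log2 ratio 2.03) and Ptges3 (0.44) were higher, and those of Cd63 (-0.65), Rpl34 (-0.56) and Rpl28 (-0.54) were lower. Each of these sums includes the copy that chose the pair. Over all 111 tested pairs 18.9% had sums that did not overlap, 12 higher and 9 lower, and of the 101 pairs whose copy did not pass 15.8% had. The sums of Rpsa (-0.14), Rpl10 (0.03), Pgam1 (0.09), Hmgb1 (0.06) and Rpl31 (0.64) overlapped. The exact permutation p of 3 libraries against 3 cannot go below 0.1, so these sums are described by overlap here. That p is given above for the sums of Rpsa and Rpl10 only. Adding every gene of the table with at least 95% identity over at least 80% of the copy left the direction of each sum as it was and the same 5 pairs without overlap. For Rpl34-ps1 this added 3 genes beside Rpl34, and the sum moved by a log2 ratio of -0.55. For Hmgb1-ps5 the sum covered 22 near copies and moved by 0.04.

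The share of a pair's fragments given to the copy moved without overlap for 8 of the 10 copies past the test. It did so for 22 of 111 tested pairs (19.8%), 14 higher and 8 lower in Hemgn-/- libraries. It fell for Rpl28-ps3, from 76.0% to 57.8%, and rose for the other 7. Each share includes the copy that chose the pair, so the count among copies past the test is not independent of that test. Near-identical copies make these shares depend on how the reads were assigned, which is uncertain.

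**Figure D4:**
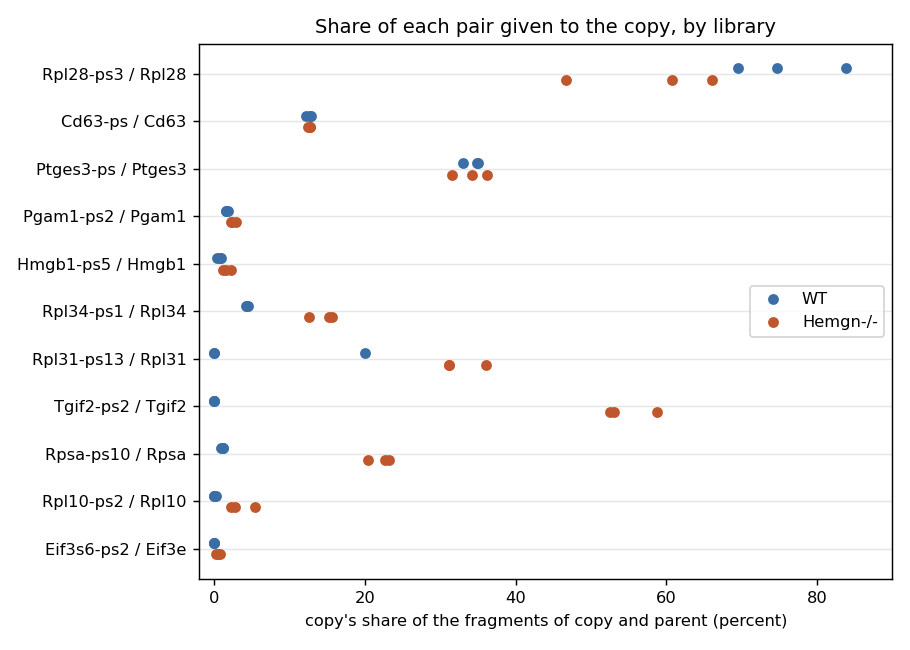
Share of the fragments of copy and parent given to the copy, in percent, for the 3 WT (blue) and 3 Hemgn-/- (orange) libraries of each pair. Groups are far apart for Tgif2-ps2, Rpsa-ps10 and Rpl34-ps1 and overlap for Cd63-ps and Ptges3-ps; Eif3s6-ps2 is set against Eif3e.

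Median identity to the parent was 99.3% for the 10 copies past the test with a parent in the table and 99.1% for all 111. Copies past the test lay on 9 chromosomes. Of the 50 tested copies with no stretch of 150 bases shared with another transcript 2 passed (4%). Of 78 with some shared 8 passed (10.3%), and of 16 with all shared 2 passed (12.5%), against 6.46% of all genes tested. These counts were not tested against each other. Of the 8, Tgif2-ps2, Rpsa-ps10, Rpl10-ps2 and Eif3s6-ps2 met the filter through Hemgn-/- libraries only, so the difference itself brought them into the test. The 62 tested copies that overlap another gene overlap 43 tested genes, of which 4 passed (9.30%, against 6.46% of all genes tested). Hmgb1-ps5 and Rpl28-ps3 passed in the direction of the overlapping gene, and the copies beside the other two, Hmgb1-ps8 and Rpl19-ps1, did not pass.

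Copies that did not pass but had the largest changes were Hmgb1-ps8 (log2 fold change 0.88, adjusted p = 0.153), Polr2k-ps (-0.87, 0.106), Rpl19-ps1 (0.82, 0.104), Rps2-ps9 (0.73, 0.0936) and Rpl35a-ps3 (-0.72, 0.168), by limma with Benjamini-Hochberg adjustment. Hmgb1-ps8 lies in an intron of Gm26740, which rose (log2 fold change 0.38, adjusted p = 0.0300), and Rpl19-ps1 lies in an intron of C130026I21Rik, which rose too (0.75, adjusted p = 0.0343). Hmgb1-ps8 also lies in introns of H60b (0.55, adjusted p = 0.217) and Raet1e (0.04, 0.949). The genes around the other copies did not pass, with Zfp652 around Polr2k-ps at -0.05 (adjusted p = 0.816), D17Wsu92e around Rps2-ps9 at 0.04 (0.922) and Rab44 around Rpl35a-ps3 at -0.28 (0.0550). Their parents Hmgb1 (0.04), Polr2k (0.32), Rpl19 (0.24), Rps2 (-0.13) and Rpl35a (0.20) were not past the test. Of the 132 tested copies that did not pass, 110 had a log2 fold change within 0.5 of 0.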

How the data were processed

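RNA from 3 WT and 3 Hemgn-/- libraries was compared. The authors deposited FPKM values per gene, made from aligned fragments, gene length and library total; the submitters' processing notes name Bowtie2 2.2.3, HISAT2 2.1.0, TopHat2, HTSeq 0.6.0 and GRCm38 with no roles, and the annotation is not given in the sources used here. The study describes Smart-Seq2 cDNA, while the labels also name TruSeq kits.

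Symbols, exon lengths and sequences came from GENCODE M21 (24921 of 24965 identifiers matched). Depth was recovered from the steps of low FPKM values, which gave whole fragments for 95.7% of 13472 genes with at most 100 fragments (tolerance 0.05). Genes above 1 FPKM in at least 1 library (13739) were compared as log2(FPKM + 1) with limma 3.58.1 in R 4.3.3 (eBayes with trend, two-sided, Benjamini-Hochberg over all genes tested, called under 0.05). This scale understates changes of low genes. Copies were aligned to transcripts with blastn 2.17.0, and near copies and parents were summed as FPKM times exon length; no genome sequence was searched. The method was tested on simulated data.

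Named genes were Hemgn, each copy past the test with its parent, the 5 most abundant copies and the 5 with the largest change among those not past it; parents past the test, host genes, Eif3e and marker lists were added. The members and lists were chosen with earlier results of these data known. Same-numbered libraries did not deviate together (correlations -0.043, -0.0094 and 0.011). Alternatives were another pseudocount, filters, scalings, eBayes without a trend, a replicate block, voom and each library left out.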

Additional observations from a re-analysis of the deposited data

How the results depend on the processing

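Directions of the called copies, and of the called parents named above, held under the 15 alternatives. Of the 12 copies, Tgif2-ps2, Rpsa-ps10, Rpl10-ps2 and Cd63-ps passed the test under all 15, Rpl34-ps1 under 14, Eif3s6-ps2 under 13, Rpl31-ps13 and Rpl28-ps3 under 7, Nxpe1-ps, Pgam1-ps2 and Ptges3-ps under 4 and Hmgb1-ps5 under 2. The cause of these losses was not tested. Tgif2-ps2, Rpsa-ps10, Rpl10-ps2 and Eif3s6-ps2 met the main filter through Hemgn-/- libraries only, and alternatives that keep this filter share that limit.

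Higher copies numbered 10, and 5 with all genes above 0 FPKM, 6 with median-ratio scaling, 6 with quantile normalization, 13 after rescaling to the same FPKM total, 5 without a trend, 6 with voom and 4 to 8 with 1 library left out. The 2 lower copies became 1 with all genes above 0 FPKM, without a trend and with voom, and 1 to 2 with 1 library left out. Parents that were higher numbered 4, 2 without a trend and 2 to 4 with 1 library left out.

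Of all genes, 600 were higher, 309 with genes above 0 FPKM, 341 with median-ratio scaling, 1062 after rescaling to the same FPKM total, 369 with quantile normalization, 237 without a trend and 223 to 451 with 1 library left out. Lower genes numbered 287, 157 with genes above 0 FPKM, 153 without a trend and 150 to 237 with 1 library left out. Higher genes made up 67.6% of calls, 46.9% with median-ratio scaling, 51.3% with quantile normalization and 81.7% with equal FPKM totals. Under these 4 settings the median over tested genes was 0.09, 0.01, 0.01 and 0.16 (log2).

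The replicate numbers did not pair the libraries. A fit with the replicate block gave 6 higher copies and 1 lower copy, and 410 higher and 226 lower genes. The 5 pairs without overlap of summed fragments stayed between 5 and 7 under other scalings and with 1 library left out. Dropping a library cannot make separated groups overlap, so the counts with 1 library left out could not fall.

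Low copies rest on few fragments (Rpl31-ps13 on 22 to 38 per Hemgn-/- library, Hmgb1-ps5 on 12 to 60 over all libraries), and no setting resolves how reads were assigned between copies.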

Other observations

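Among copies that were higher in Hemgn-/- HSPCs, 3 had fragments in only 1 WT library, and it was WT replicate 2 in each case. Rpl10-ps2 had 0, 14 and 0 fragments in WT libraries, Rpl31-ps13 had 0, 12 and 0, and Eif3s6-ps2 had 0, 6 and 0. In Hemgn-/- libraries they had 152, 175 and 379, 22, 28 and 38, and 42, 79 and 109 fragments. Of 599 higher genes with recovered fragments, 4 had 5 or more fragments in WT replicate 2 and 0 in the other two WT libraries, and 0 had this pattern in WT replicate 1 or 3. The fourth gene was Gm23850. These genes were picked after their values were seen, and the cause was not tested.

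Rpl36a-ps4, also chosen after its values were seen, was the single tested copy listed at 0 in all 3 Hemgn-/- libraries, and its only value above 0 was 1.46 FPKM in WT replicate 3. Ribosomal protein parents were not uniformly abundant in the table: 18 of 47 were under 5 FPKM.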
